A study of Drosophila melanogaster with 2 samples.

Results

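The genes described here are the ecdysone receptor and its early response genes: EcR, usp, Eip75B, Eip74EF, br, Hr3, Hr4, Hr39, ftz-f1 and Eip93F. They were listed by name, 10 of the 18277 annotated genes on the named chromosomes, with earlier results of these data known. Sequencing of immunoprecipitated chromatin (ChIP-seq) was done on whole flies, adult males of Drosophila melanogaster of unknown age from 1 transgenic line, CG7045-GFP, which stably expresses tHMG1 (CG7045, an HMG-box protein) with GFP at its C-terminus. An anti-GFP antibody was used on sonicated chromatin from 2 biological replicates, numbered 1 and 3, which formed 1 group and shared the same line. The promoter that drives the fusion, whether untagged tHMG1 was also present and the number of flies per replicate are stated in none of the sources at hand. Whole flies mix all tissues, so fewer cells with a bound site and less binding per cell cannot be told apart, and peak lists hold no expression values with which to check the tissue. With 1 group there was no contrast, so counts and the authors' peak signals are described beside the same values over all genes or peaks, without a p-value.

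Ecdysone is the steroid hormone that times molting and metamorphosis in insects. Its active form binds a heterodimer of the nuclear receptors EcR and Ultraspiracle (usp, the fly counterpart of the vertebrate RXR receptors), and the loaded receptor switches on a small set of early genes. The early genes Eip75B (a heme-binding nuclear receptor), Eip74EF (an ETS-domain factor) and br (a family of BTB zinc-finger factors) encode transcription factors. They are followed by the nuclear receptors Hr3, Hr4 and Hr39 and by ftz-f1, which sets the competence of prepupal tissues to respond again, and by Eip93F, a helix-turn-helix factor of late metamorphosis and of programmed cell death. Several of these genes are long and use alternative promoters that give separate protein isoforms. In adults the same pathway acts in reproduction, behaviour and lifespan.

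Peaks at these genes lay both next to alternative start sites and deep in introns. A summit is the base at which the peak caller placed the maximum of a peak. Windows of 101 bp centred on 10 summits are shown on the strand of the gene, from 5′ to 3′, with GAGAG or its complement and CACACACA or its complement in capitals. All coordinates are those of build dm6, and none of these windows holds an annotated exon base. The first 6 summits lay upstream of a transcription start site (TSS): Eip75B at 3L:18061777-18061877 (strand −, 374 bp upstream of RE), Eip74EF at 3L:17576670-17576770 (strand −, 94 bp upstream of RB) and at 3L:17619497-17619597 (strand −, 222 bp upstream of RA, RC and RE), ftz-f1 at 3L:18765843-18765943 (strand −, 149 bp upstream of RC and RD) and at 3L:18801383-18801483 (strand −, 124 bp upstream of RB), and Eip93F at 3R:21972220-21972320 (strand +, 109 bp upstream of RA and RC).
The Eip75B window holds neither motif in its 101 bp, and the other 5 hold at least 1 match.
Eip75B RE start: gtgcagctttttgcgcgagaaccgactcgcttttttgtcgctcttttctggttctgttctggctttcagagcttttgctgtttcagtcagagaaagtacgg
Eip74EF RB start: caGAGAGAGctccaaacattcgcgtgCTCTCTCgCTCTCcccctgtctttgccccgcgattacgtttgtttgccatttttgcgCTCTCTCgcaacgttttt
Eip74EF RA start: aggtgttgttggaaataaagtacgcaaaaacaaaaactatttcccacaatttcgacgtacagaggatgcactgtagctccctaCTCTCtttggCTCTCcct
ftz-f1 RC start: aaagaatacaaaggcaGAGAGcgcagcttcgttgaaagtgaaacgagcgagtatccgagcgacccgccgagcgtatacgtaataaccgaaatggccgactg
ftz-f1 RB start: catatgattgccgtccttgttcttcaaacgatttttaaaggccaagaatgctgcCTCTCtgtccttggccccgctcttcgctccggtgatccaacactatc
Eip93F RA start: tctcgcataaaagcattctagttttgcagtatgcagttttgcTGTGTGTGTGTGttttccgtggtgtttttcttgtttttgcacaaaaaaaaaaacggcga

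The strongest intron summits of 4 genes are shown as those of highest signal, not as typical of intron summits. None holds either motif in its 101 bp, although the wider window of 200 bp around the Hr4 summit holds 3 matches of GAGAG. They lay in ftz-f1 at 3L:18756588-18756688 (strand −), in Eip75B at 3L:18063081-18063181 (strand −), in Hr4 at X:1963883-1963983 (strand +) and in br at X:1618855-1618955 (strand +). The GC content of these 4 windows was 27.7%, 18.8%, 32.7% and 35.6%, lower than the median of 41.8% in 200 bp around all 36 summits of these genes farther than 500 bp from any TSS. For the 6 windows upstream of start sites it was 47.5%, 52.5%, 42.6%, 51.5%, 49.5% and 37.6%, in the order of their listing.
ftz-f1 intron: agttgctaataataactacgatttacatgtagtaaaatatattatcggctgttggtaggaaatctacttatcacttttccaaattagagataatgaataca
Eip75B intron: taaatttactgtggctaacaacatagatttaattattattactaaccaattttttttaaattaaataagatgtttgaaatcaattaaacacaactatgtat
Hr4 intron: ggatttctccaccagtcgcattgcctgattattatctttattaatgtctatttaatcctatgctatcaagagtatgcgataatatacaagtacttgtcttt
br intron: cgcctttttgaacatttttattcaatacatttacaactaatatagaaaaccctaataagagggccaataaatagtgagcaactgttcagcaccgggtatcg

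The study deposited 4 dm6 peak lists. Each replicate's own list and a list of the replicates pooled hold 30000 peaks each and reach far into weak peaks. The list made by the irreproducible discovery rate (IDR) procedure, which rests on how alike peaks rank in the replicates, holds 4574 peaks. They are the 4574 strongest of the pooled list, with signals from 90.3 to 2863.8 and a median of 145.9. A single peak of the list need not rank alike in both replicates. The Eip74EF summit at 17590788, for example, ranked 8729 in replicate 1 and 1407 in replicate 3. Signal is the authors' own value per peak, is not scaled between replicates, and carries no counting error because read depth is unknown.

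Of the 10 genes, 7 had at least 1 IDR summit inside the gene or within 2 kb of it, against 36.1% of the 13968 protein-coding genes. The 7 were EcR, Eip75B, Eip74EF, br, Hr4, ftz-f1 and Eip93F, and the 3 without one were usp, Hr3 and Hr39. Gene length divided them in the same way. All 7 genes of 50 kb and over had an IDR summit, where 54.6% of the 313 protein-coding genes of that length did. Neither Hr3 nor Hr39, of 10 to 50 kb, had one, against 53.3% of genes of their length, and usp, under 10 kb, belonged to a class in which 33.2% did. Each of the 10 genes had a peak of the pooled list, which reached 76.3% of protein-coding genes.

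The genes held 50 IDR summits, 1.09% of all, with 44 inside a gene and 6 in a flank. Eip75B had 12, Eip74EF and ftz-f1 10 each, Hr4 7, EcR 6, Eip93F 4 and br 1. The 3 genes on arm 3L, which are the 3 with the most summits, held 32 of the 50 (64.0%). The share of all IDR peaks on 3L was not computed, so this is not read as particular to the arm. Overlapping peaks counted once left 47. Of the flank summits, 4 lay within 500 bp of a neighbour's TSS and not of one of their own gene, namely those at CycT downstream of Eip74EF, CG3587 upstream of Hr4, and PIG-K and lncRNA:CR45478 downstream of Hr4, and 46 summits remained without them.

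**Figure D1:**
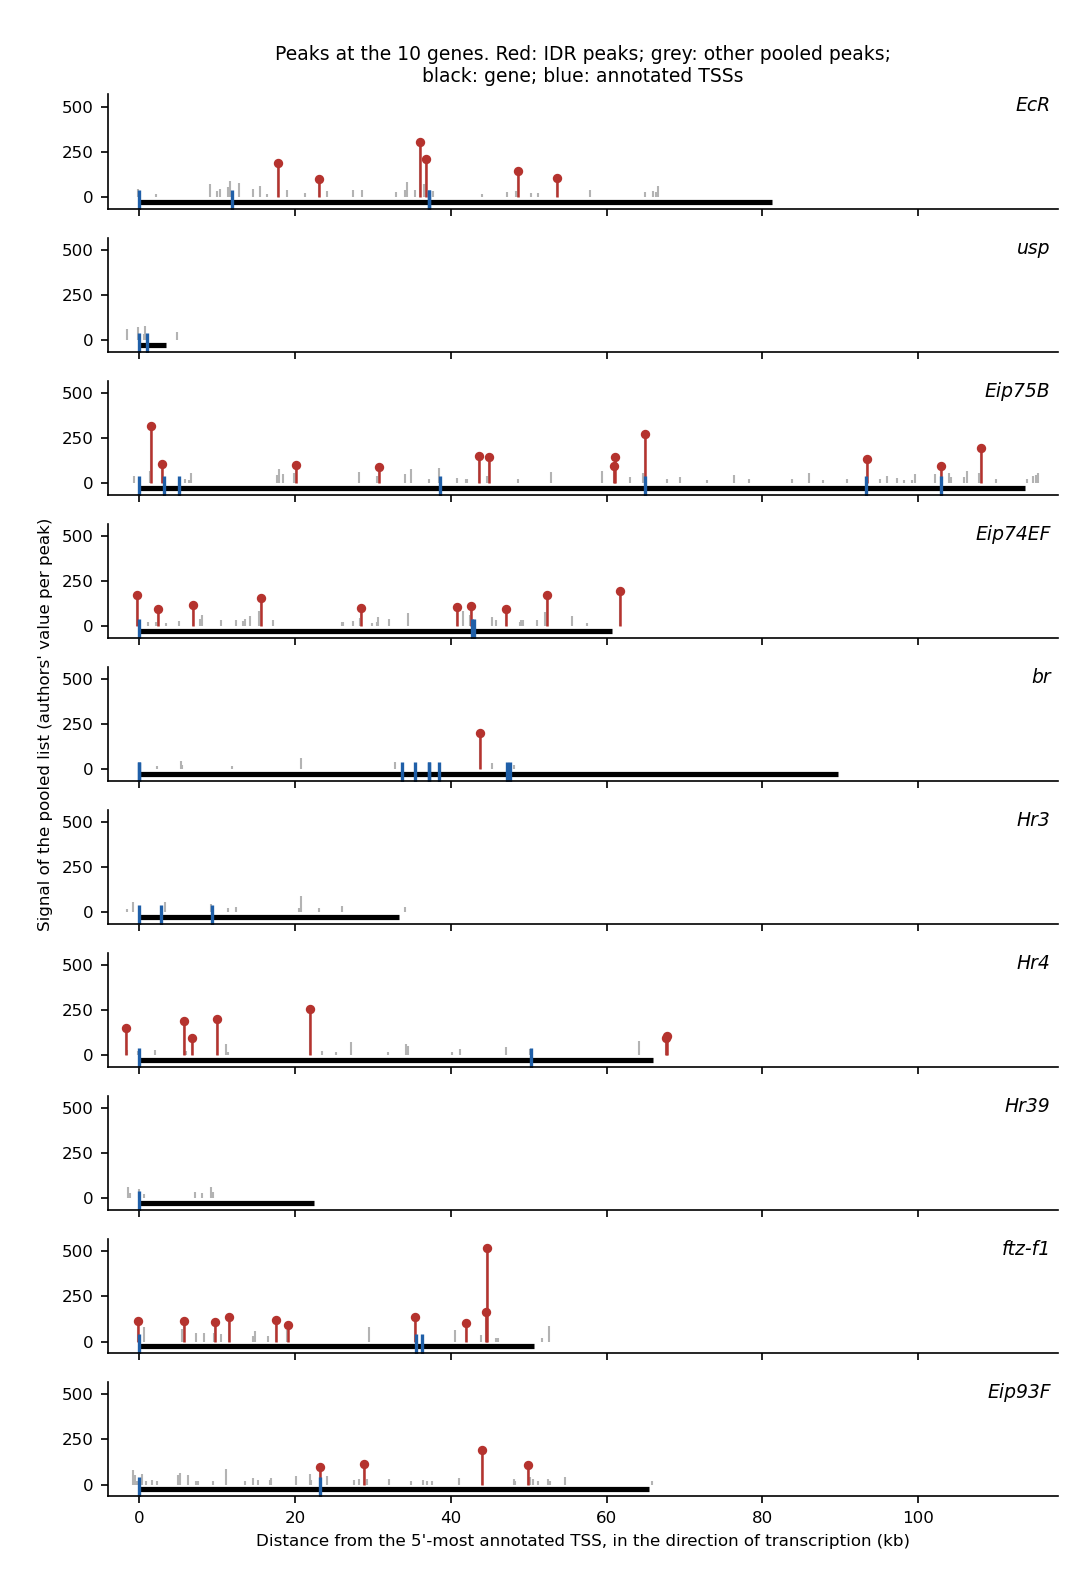
Peaks along the 10 genes. The horizontal axis gives the distance in kb from the most 5′ TSS in the direction of transcription, and the vertical axis the authors' signal in the pooled list. Red stems are IDR peaks, grey stems other pooled peaks, black bars genes and blue ticks TSSs. The red stems of Eip75B, Eip74EF and ftz-f1 are spread along the whole gene, br has 1, and usp, Hr3 and Hr39 have none.

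The receptor genes EcR and usp differed in what they carried. EcR (2R, 6087873 to 6169087, strand −, 81.2 kb) encodes the ecdysone-binding subunit and has 6 transcripts from 4 TSSs, by which its isoforms are made. Its strongest summit, at 6133080, had a signal of 304.0 in the pooled list, 168.4 in replicate 1 and 137.7 in replicate 3, and lay in an intron 1158 bp upstream of the RB and RC start. A second summit closer to that start, 333 bp upstream of RB and RC and 414 bp upstream of RG, had 213.3, with 70.0 in replicate 1 and 140.9 in replicate 3. The replicates thus ordered this pair of neighbouring summits differently, with the farther one stronger in replicate 1 and the nearer one slightly stronger in replicate 3.

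The other EcR starts fell below the IDR list. At RD and RE the strongest pooled peak within 500 bp had a signal of 87.3, just under the weakest IDR peak at 90.3, with 64.2 in replicate 1 and 30.9 in replicate 3. At RA, the most 5′ start, it had 43.8, with 19.7 and 26.0 in replicates 1 and 3. The remaining 4 EcR summits, at 188.2, 145.7, 105.6 and 99.4, lay 5848 to 16347 bp from an EcR start, in an intron that is 56758 bp long in the longest case. tRNA genes lie in the same region. The summit of 188.2 lay 1395 bp from the tRNA:Asn-GTT-1-1 start and that of 99.4 lay 3583 bp from tRNA:Lys-CTT-1-1.

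usp (X, 2038798 to 2042311, strand −, 3.5 kb) encodes the partner of EcR in the receptor. It had 5 pooled peaks, none in the IDR list. The peak 188 bp upstream of the RA start had a signal of 77.4, with 62.2 (rank 3608) in replicate 1 and 33.9 (rank 6420) in replicate 3. The peak 99 bp upstream of the RB start had 71.9, with 59.4 (rank 3853) and 22.2 (rank 11719). Both were thus among the 4574 strongest peaks of replicate 1 and outside that number in replicate 3.

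Eip75B (3L, 17950953 to 18064696, strand −, 113.7 kb), which encodes isoforms of the fly counterpart of vertebrate Rev-erb, had the most summits. Each of its 7 transcripts starts at its own TSS, and 4 of these had an IDR summit within 500 bp. The RC start had the strongest, 22 bp downstream, at 272.8 in the pooled list, 165.4 in replicate 1 and 103.3 in replicate 3. The RA start had 137.2 (71.8 and 66.3), the RE start 107.6 (49.0 and 57.7) and the RD start 95.8 (40.3 and 52.0). RG had a pooled peak of 83.5, below the IDR list, and RF and RB had no peak within 500 bp in any of the lists.

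The other 8 Eip75B summits lay in introns. The strongest of the gene, at 18063131, had a signal of 320.3, with 152.3 in replicate 1 and 178.3 in replicate 3, and lay 1565 bp downstream of the RF start in an intron of 3656 bp of that transcript alone. Near the other end of the gene, the summit at 17956657 had 195.4 (118.8 and 72.8) and lay in an intron of all 7 transcripts. In between, the intron of 65240 bp held 6 intron summits, from 92.9 to 152.1, of which a pair of 143.2 and 97.8 lay 199 bp apart. The weakest, 92.9 at 18033950, ranked 4386 among the 4574 IDR peaks and was uneven, with 34.2 in replicate 1 and 63.6 in replicate 3.

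Eip74EF (3L, 17558672 to 17619325, strand −, 60.7 kb) encodes ETS-domain isoforms that share their DNA-binding end and differ in their start. Each of its 3 TSSs had an IDR summit within 500 bp. The common start of RA, RC and RE had 174.9, with 91.0 in replicate 1 and 80.7 in replicate 3. RB and RD shared a summit of 112.8, which lay 94 bp upstream of RB and 400 bp upstream of RD, with 51.5 and 67.8 in replicates 1 and 3. Of its other summits, 7 lay in introns, from 95.3 to 172.2, and the strongest of all 10, 193.7, lay in the downstream flank 183 bp from the start of CycT, which encodes cyclin T. The intron summit at 17590788 had 103.3 in the pooled list but 32.2 in replicate 1 against 85.1 in replicate 3, the most uneven towards replicate 3 of all 50.

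br (X, 1575132 to 1664869, strand +, 89.7 kb), the Broad zinc-finger gene, stood apart from the other early genes. It has 16 transcripts and 9 TSSs, and no list of the 4 had a peak within 500 bp of any of them. Its single IDR summit, at 1618905, had 200.0 in the pooled list, 105.4 in replicate 1 and 98.2 in replicate 3. That summit lay in an intron of 14 of the 16 transcripts, 3403 bp upstream of the RS start, and 750 bp from a start of Mur2B, a gene that overlaps br on the opposite strand. br had 9 pooled peaks, or 9.60 per 100 kb, where the median of the 313 long genes was 14.7 and that of the 69 long genes on X was 11.9. Of those 69, 26 had a lower density of pooled peaks than br, and its next strongest pooled peak had a signal of 60.6.

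**Figure D2:**
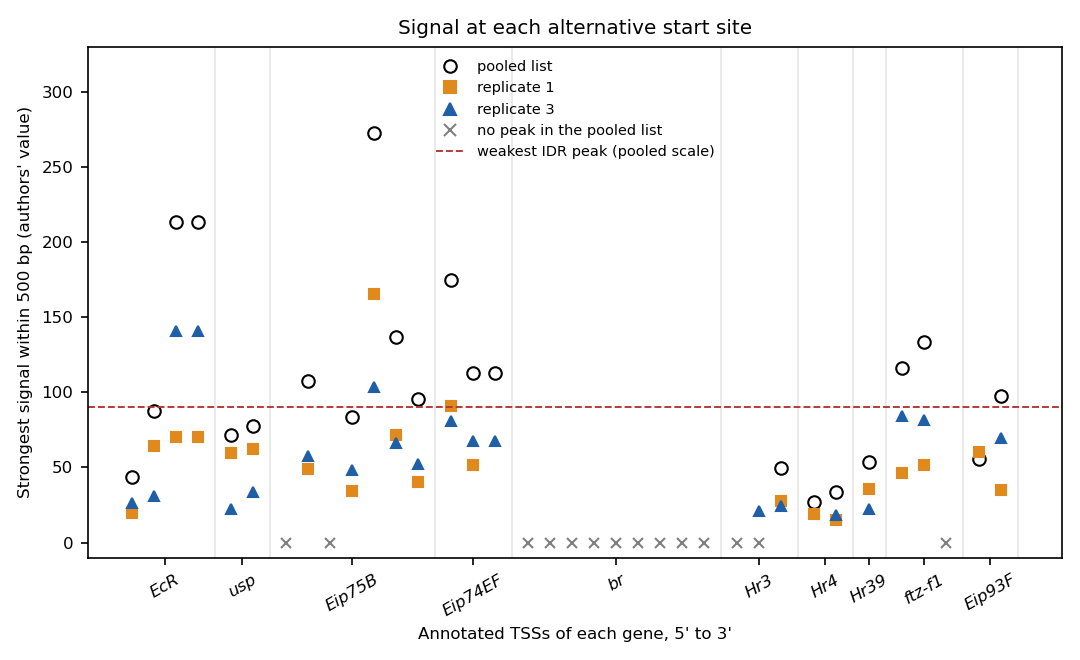
Signal at the 36 annotated TSSs of the 10 genes. Each position on the horizontal axis is a TSS, in order from 5′ to 3′ within a gene, and the vertical axis is the authors' signal of the strongest peak within 500 bp in the pooled list (open circles), replicate 1 (squares) and replicate 3 (triangles). A cross marks a TSS without a pooled peak, and the dashed line is the weakest IDR peak at 90.3. Circles at neighbouring TSSs of EcR and of Eip74EF are the same peak. The 9 TSSs of br all have crosses.

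Among the nuclear receptors that follow the early genes, Hr4 had 7 IDR summits and Hr3 and Hr39 had none. Hr4 (X, 1941940 to 2007956, strand +, 66.0 kb) encodes a repressor that acts in the timing of the ecdysone response. Its 4 summits inside the gene were all in introns in its 5′ part, at 257.2 (170.2 in replicate 1 and 90.1 in replicate 3), 199.9, 190.5 and 95.8. They lay from 5787 to 21993 bp downstream of the start that 7 of its 9 transcripts share. That start itself had a pooled peak of 27.0 and the RE and RF start one of 33.7, among the weaker peaks of the list. The 3 flank summits, of 152.9, 105.4 and 98.8, were those at the neighbouring starts.

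Hr3 (2R, 10203995 to 10237348, strand −, 33.4 kb), the fly counterpart of the ROR receptors and an activator of ftz-f1, was just outside the IDR list. Its strongest pooled peak, at 10216617, ranked 4578 with a signal of 90.3, which after rounding equals the weakest of the 4574 IDR peaks. It had 52.3 (rank 4614) in replicate 1 and 33.3 (rank 6621) in replicate 3. At its TSSs the strongest pooled peak had 49.3, at the start of RA, RF and RH. Hr39 (2L, 21237250 to 21259675, strand +, 22.4 kb), which encodes a relative of the ftz-f1 receptor known for its role in the female reproductive tract, had no peak above 62.8, and the peak at its single TSS had 53.4, with 35.6 in replicate 1 and 22.1 in replicate 3.

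ftz-f1 (3L, 18750607 to 18801309, strand −, 50.7 kb), the fly member of the NR5A receptors, held the strongest peak of the 10 genes. The summit at 18756638 had a signal of 520.4, rank 209, with 307.6 (rank 223) in replicate 1 and 217.5 (rank 204) in replicate 3. It was the only one of the 50 summits among the 500 strongest IDR peaks. A second summit, of 165.9 (86.1 and 54.4), lay 199 bp away in nearly the same interval. Both lay in an intron of all 4 transcripts, the stronger one 8318 bp downstream of the RA start and 2553 bp from the start of lncRNA:CR45938.

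The RB start of ftz-f1 had a summit of 116.0 (46.6 and 84.1 in replicates 1 and 3), which lay 121 bp from the start of lncRNA:CR45939 as well. The start of RC and RD had 133.7 (51.5 and 81.3), and the RA start had no peak within 500 bp. The intron of 33674 bp that RB alone has held 6 summits, the one at the RC and RD start and 5 more from 93.7 to 138.3. A last summit, of 104.8, lay 5559 bp from the RA start in the intron that also holds the strongest.

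Eip93F (3R, 21949114 to 22014539, strand +, 65.4 kb) had 4 IDR summits. The common start of RA and RC had 97.5, with 35.1 in replicate 1 and 69.4 in replicate 3. At the RB start, the most 5′, the pooled peak had 55.8, with 60.0 in replicate 1 and none in replicate 3. The other 3 summits lay in introns 5654 to 26642 bp downstream of the RA and RC start, and the strongest, at 21993096, had 190.7, with 127.1 and 59.3 in replicates 1 and 3. The start site peak was higher in replicate 3 and the strongest intron peak higher in replicate 1.

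Over all 10 genes, 12 of the 36 TSSs had an IDR summit within 500 bp, against 19.8% of the 19275 TSSs of protein-coding genes. They belonged to 5 of the 10 genes, EcR, Eip75B, Eip74EF, ftz-f1 and Eip93F, against 21.4% of protein-coding genes. In the pooled list 22 of the 36 TSSs and 9 of the 10 genes had a peak within 500 bp, br being the exception. Alternative starts of 1 gene were unlike each other. In each of these 5 genes except Eip74EF, at least 1 other TSS had none.

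Most summits were intronic. Of the 50, 36 lay in introns (72.0%, against 32.6% of all IDR summits) and 14 within 500 bp of a TSS of any gene (28.0%, against 57.9%). Summits within 500 bp of a TSS were not classed further by exon or intron. None of the others lay in coding sequence, a UTR or a non-coding exon. The summits were 5818 bp from the nearest TSS of their own gene at the median, 36 of them farther than 2 kb and 30 farther than 5 kb. To the nearest TSS of any gene the median was 3661 bp, against 313 bp for all IDR summits, and 18 of the 50 were nearer to another gene's start than to their own. Of the 36 intron summits, 21 were in the first intron of at least 1 transcript. No matching share over all IDR summits was computed for the 18 or the 21, so neither is read as particular to these genes. At the other genes of 50 kb and over, 55.6% of 514 summits were intronic and 38.9% lay at a promoter.

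The number of summits was read against genes of like length. Among the 313 protein-coding genes of 50 kb and over, the median was 1 IDR summit and the highest 16, at Pdp1. Of these genes 11 (3.51%) had 10 or more, and 3 of the 11 were Eip75B, Eip74EF and ftz-f1. Eip74EF and ftz-f1 stood exactly at 10. The summits of Eip74EF include the flank summit 183 bp from the CycT start. With overlapping peaks counted once, ftz-f1 had 9, Eip74EF 10 and Eip75B 11. In the strongest peaks of replicate 1 alone, Eip74EF had 7, Eip75B 8 and ftz-f1 7. In those of replicate 3 alone they had 9, 15 and 11. The other long genes were not recounted in these ways. Per 100 kb of gene and flanks, ftz-f1 had 18.3 (rank 3 of the 313), Eip74EF 15.5 (rank 4), Eip75B 10.2, Hr4 10.00, EcR 7.04, Eip93F 5.76 and br 1.07, where the median was 1.05. Thus 6 of the 7 long members were above the median by number and br equalled it at 1 summit. On X, 52.2% of the long genes had an IDR summit and elsewhere 55.3%, so the shares were close.

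**Figure D3:**
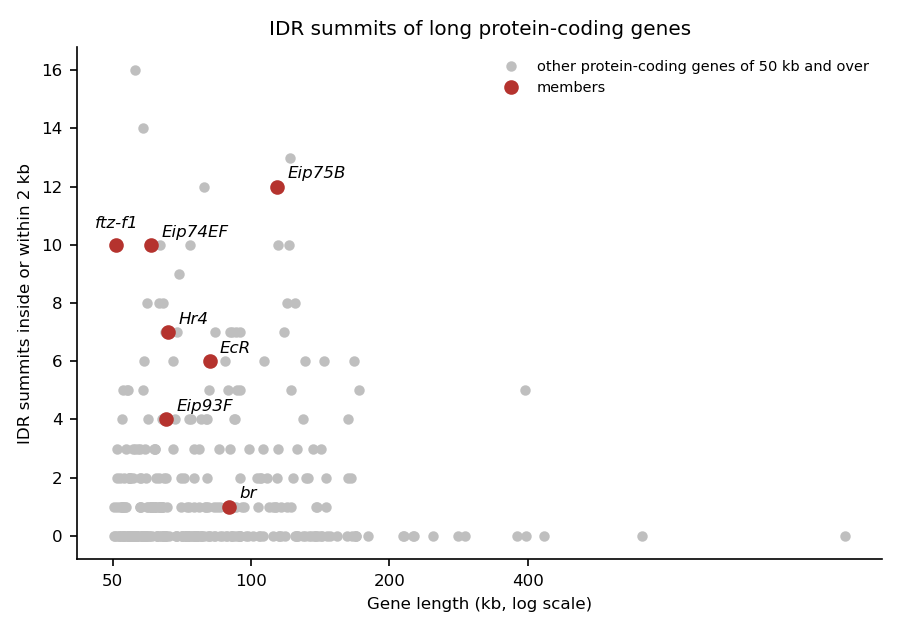
IDR summits inside or within 2 kb of the 313 protein-coding genes of 50 kb and over, by gene length in kb on a log scale. Each point is a gene, red for the 7 long members and grey for the others. Eip75B has 12 summits, ftz-f1 and Eip74EF 10 each, and br 1, the median of these genes.

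The 5 genes most like Eip75B in number of summits, with ties taken by summed signal, were sbb with 12, Svil with 13, and SNF4Agamma, sima and Glut4EF with 10 each. sbb encodes a nuclear corepressor, Svil a supervillin-like actin-binding protein, SNF4Agamma a subunit of AMP-activated kinase and sima the fly hypoxia-inducible factor. Their strongest peaks were 822.5, 759.8, 351.1, 201.3 and 157.1. By summed signal, Eip75B at 1860.1 was closest to SNF4Agamma at 1853.1. The summits of Glut4EF are shared with the overlapping gene CG46467.

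All 50 summits had an overlapping peak in both replicates, as had 4558 of all 4574 IDR peaks. The replicate summits lay 12.5 bp (replicate 1) and 11.5 bp (replicate 3) from the IDR summit at the median, with 241 bp the largest shift. These shifts were not computed over all IDR peaks. Of the 50 peaks, 34 (68.0%) overlapped a peak among the 4574 strongest of both replicates, against 76.6% of all IDR peaks. These genes' peaks were weaker than the rest in the pooled list, with a median signal of 126.9 against 145.9, and 6 of them exceeded 200. In replicate 1 their median was 68.7 against 85.9, and in replicate 3 it was 66.5 against 63.7.

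The ratio of replicate 1 to replicate 3 was lower at these genes. Its median was 1.08, with a range from 0.378 to 2.38, against 1.42 for all IDR peaks, and replicate 1 was the higher in 29 of 50 peaks (58.0%), against 81.2% of all. Peaks of lower signal had a lower ratio throughout, and the difference was also present within them. For peaks at or below the median signal of the IDR list the ratio was 0.988 at 30 member peaks and 1.32 at all 2277 such peaks, and above it 1.39 at 20 member peaks and 1.47 at 2281. By position, the 14 member peaks at a TSS had 0.768 against 1.41 for all promoter peaks, and the 36 intronic ones 1.17 against 1.45. By gene, the median ratio ran from 0.839 in Eip93F to 1.36 in Hr4. The summits at the other long genes had 1.39.

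**Figure D4:**
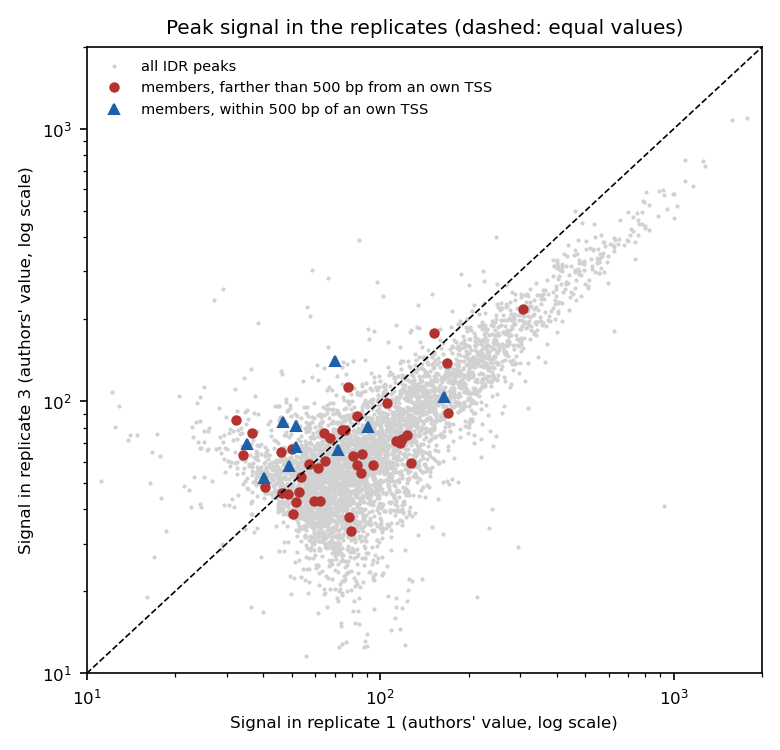
Signal of each IDR peak in replicate 1 (horizontal axis) and replicate 3 (vertical axis), both the authors' values on log scales. Grey points are all IDR peaks with a peak in both replicates, red circles the 40 peaks of the 10 genes farther than 500 bp from a TSS of their own gene, and blue triangles the 10 closer ones. The dashed line marks equal values. Most grey points lie below it, and 29 of the 50 coloured points do.

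Sequence was examined in 200 bp around each summit, on both strands. GAGAG, the core of the site bound by the GAGA factor, was in 22 of 50 windows (44.0%), against 25.8% of all IDR windows. It was in 10 of the 10 windows of summits within 500 bp of a TSS of their own gene. Of the 14 windows within 500 bp of any gene's TSS 71.4% held it, against 25.2% of all such IDR windows, and of the 36 farther ones 33.3%, against 26.6%. The most matches were 12 at the RC and RD start of ftz-f1, 10 at the intron summit of Eip74EF at 17590788 and 7 at its RB start. In 100 bp, 5 of the 10 windows at own starts held GAGAG.

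Centred on the TSS itself rather than on the summit, 200 bp held GAGAG at 11 of the 36 TSSs (30.6%), against 24.9% of all 19275. With an IDR summit within 500 bp it was in 4 of 12 (33.3%), against 26.7% of 3810 such TSSs of protein-coding genes. Without one it was in 7 of 24. The summits at these starts thus gave 10 of 10 windows, and the starts themselves 4 of 12. The totals of 10 and 12 differ because neighbouring TSSs of EcR and of Eip74EF share a summit. The windows also differ, as 1 set is centred on summits up to 500 bp from the start and the other on the start. Windows with GAGAG had a lower ratio of the replicates among all IDR peaks, 1.33 against 1.44 without it, and at these genes 0.993 against 1.11.

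CACACACA was in 9 of the 50 windows (18.0%), against 5.09% of all IDR windows. AACAAT, a core bound by many HMG-box proteins, was in 9 (18.0%), against 24.8%. AGGTCA, the half-site of nuclear receptors including the ecdysone receptor, was in 2 of the 50, where 3.61% of all IDR windows held it (in 400 bp 18.0%, against 7.24%), at intron summits of Eip74EF and ftz-f1. The inverted repeat of AGGTCA around a 1-base spacer, the palindromic form of the ecdysone response element, was in none of the 50 windows, also when up to 2 mismatches were allowed, as 0.175% of all IDR windows did. TATCGATA, the DRE, was in none, against 3.17%. The GC content of the windows was 42.8% at the median, against 36.5%, and the difference was present both near a TSS (45.2% against 36.5%) and farther away (41.8% against 37.0%). GC content and GAGAG were both higher here, and the part of one in the other was not tested. The summit base was soft-masked as a repeat at 14% of the 50 summits, against 21.8% of all, while 94% of the 200 bp windows held at least 1 soft-masked base, against 85.4%.

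Around these genes, other genes of the ecdysone pathway were taken from 7 lists. Of 70 genes, 30 (42.9%) had an IDR summit inside or within 2 kb, against 36.1% of protein-coding genes. Within 500 bp of a TSS 18 of the 70 had one, against 21.4% of protein-coding genes. The lists differ in gene length and were not matched for it. The share of all protein-coding genes was 33.2% under 10 kb, 53.3% at 10 to 50 kb and 54.6% at 50 kb and over. None of 11 genes for ecdysone import, synthesis and clearance had one, among them the cytochrome P450 genes phtm, dib and sad, which act in the synthesis of ecdysone, and shd, which converts ecdysone to its active form, the importer Oatp74D and Cyp18a1, which inactivates the hormone. The Sgs glue genes and the Fbp fat body genes of larvae had none either.

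Of 9 coregulators of the receptor, 8 (88.9%, against 36.1% of protein-coding genes) had an IDR summit. The exception was trr, a histone methyltransferase whose strongest pooled peak had 88.1. The strongest IDR peak was at Hsp83, the Hsp90 chaperone of steroid receptors, with 982.9 (534.9 in replicate 1 and 445.7 in replicate 3). It was the 48th of all IDR peaks. Smr, a corepressor, had 307.9, Chd1, a chromatin remodeller, 305.4, and tai, a coactivator of EcR, 274.5 with 7 summits in all. The Chd1 summit lay 112 bp from the start of Bem46 and that of tai 122 bp from the start of CG9586, nearer than to their own.

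Of 14 other nuclear receptors, 5 (35.7%) had an IDR summit, close to the 36.1% of protein-coding genes. Hr96, a receptor of lipid metabolism, had 363.3, ERR, a regulator of carbohydrate metabolism, 355.2, Hnf4, of fatty acid use and insulin secretion, 290.0 with 6 summits, and Hr38, an NR4A receptor, 169.3. The summits of Hr96, ERR and Hr38 lay 94, 30 and 94 bp from the starts of EMC6, Atg18a and Cen. Eip78C, an ecdysone-induced receptor gene akin to Eip75B, had none, and its strongest pooled peak had 65.5.

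Of 9 other ecdysone-response transcription factors, 8 (88.9%, against 36.1% of protein-coding genes) had an IDR summit, all but crc. The highest were at gce, a juvenile hormone receptor, with 552.3 at a summit 286 bp from the start of asRNA:CR44429, at vri, also a clock gene, with 350.3 and 8 summits, at ab with 197.8 and at crol with 155.2. Of 10 further Eip and Imp genes, named for their induction by ecdysone, 5 had one, led by Eip63F-1 at 559.9, ImpL2, an insulin-binding protein, at 307.3, Ldh at 287.9 and ImpE3 at 160.8, the last 139 bp from the start of CG2747. Of 14 cell death and larval tissue genes, 3 (21.4%) had one. These were the death gene hid at 491.9, the caspase gene Drice at 370.6 and the caspase gene Dronc at 124.6. The Drice summit lay 54 bp from the start of Etfb, and that of Dronc 101 bp from a start of CG42455 and vnc. Of 3 genes of brain control and membrane reception, 1 (33.3%) had one. It was Ptth, with 270.8 at a summit 21 bp from the start of cold.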

How the data were processed

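Peaks came from ChIP-seq of GFP-tagged tHMG1 in 2 biological replicates of whole adult males, mapped to dm6 per the labels. Per the read-me texts deposited with the lists, each replicate's list derives from its own alignments and a control, the pooled list from both replicates and a control, and the IDR list from those 3. The aligner, peak caller, thresholds and depth: not given in the sources used here. The signal per peak (column 7 of the narrowPeak lists) is used as the authors deposited it, on a scale of its own in each list. The summit is the start plus the offset the authors deposited. The dm3 lists were not used.

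Genes were those of Ensembl release 115 without transposable elements, and sequence was the RefSeq Release 6 assembly, within whose arm lengths all peaks lay. All 70 listed pathway genes were matched by symbol, synonym or alias. A summit belonged to a gene when inside it or within 2 kb, and to a TSS within 500 bp. Other summits were classed as coding sequence, UTR or non-coding exon, then as intron, and else as intergenic. A replicate's peak was that overlapping the IDR peak by at least 1 bp with the nearest summit. The members, the gene lists, the motifs and the rule for named genes were chosen with earlier results of these data known. Named were all 10 members, up to 4 genes per list with the strongest IDR peak, the 5 long genes most like Eip75B, and genes in or at which a named summit lay. Genes without an IDR summit, Pdp1 and the GAGAG windows at TSSs were singled out after their values were seen, as was the split of replicate ratios by signal and by GAGAG.

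Overlap was tested on simulated data, in which 200 of 200 planted genes and 200 of 200 planted motifs were recovered. No test between groups was possible. Alternatives were other flanks, windows and overlap rules, the stronger 50% of the IDR peaks, all pooled peaks, 1 transcript per gene and the 4574 strongest peaks of either replicate alone. Python 3.11.15, numpy 2.4.6 and matplotlib 3.10.9 were used.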

Additional observations from a re-analysis of the deposited data

How the results depend on the processing

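The 7 genes with an IDR summit kept one under flanks of 0, 500 bp and 5 kb, in the stronger 50% of the IDR peaks and with 1 transcript per gene, and all 10 genes had a peak in the pooled list. With the 4574 strongest peaks of 1 replicate alone the number of genes was 7 to 8, usp being added by replicate 1. The share of all protein-coding genes, 36.1%, was 12.8% with no flank, 27.4% with 500 bp, 49.1% with 5 kb, 23.7% in the stronger 50%, 76.3% in the pooled list and 35.5 to 36.6% with 1 replicate alone, and the counts of members and of pathway genes are to be read against it. The count of 50 summits was 20 in the stronger 50%, 274 in the pooled list and 40 to 55 with 1 replicate alone, and for Eip75B it was 8 in replicate 1 alone and 15 in replicate 3 alone. The 12 TSSs became 4, 22 and 9 to 13 in the same settings, and the 36 summits away from a TSS became 15, 231 and 29 to 40. Overlap with the strongest peaks of both replicates, 34, was 32 by either stricter rule, and 36 and 48 peaks overlapped those of 1 replicate alone. The 30 other pathway genes became 18 with no flank, 53 in the pooled list and 33 to 35 with 1 replicate alone. In windows of 100 bp GAGAG was in 10 (20.0%, against 12.7% of all IDR windows), CACACACA in 5 (10.0%, 2.14%), AACAAT in 2 (4%, 13.1%) and AGGTCA in 1 (2%, 1.42%). In 400 bp CACACACA was in 20 (of 50, against 12.8% of all) and AGGTCA in 9 (18.0%, 7.24%), so that AGGTCA was near the share of all windows in 200 bp and above it in 400 bp. The stronger 50% holds fewer peaks than the IDR list and the pooled list more, and the windows differ in length. The settings of 1 replicate alone kept 4574 peaks, as many as the IDR list. The cause of the changes was not tested. Of 55 alternatives 36 were labelled the same and 19 moved. For counts, the same meant within 1.5 times of the main value. For the share of all protein-coding genes it meant within the confidence interval of 36.1%. The replicate alone settings were planned, and leaving out summits at another gene's TSS (46) was chosen after seeing the data.

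No paired analysis was possible because both replicates belong to 1 group. Depth is unknown, so a gene without an IDR summit is one below the authors' threshold, not one without binding. The control, the spread between more than 2 replicates and the tissue in which a site is bound were not analysed here.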
